A study of Mus musculus with 28 samples.

Results

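H3K27me3, the trimethylated form of lysine 27 on histone H3, was measured over Mmp15, Ajuba and Ptprf, genes of the matrix and of cell adhesion, in mouse microglia sorted after a cuprizone diet. The regions were those whose nearest gene in the authors' annotation was Mmp15, Ajuba or Ptprf, which gave 8 of the 26326 regions counted: 1 for Mmp15, 1 for Ajuba and 6 for Ptprf. All 8 passed the filter on low counts, which removed 0 regions. Mmp15 and Ajuba were chosen by a measured value, the higher mark there in CD229+CD11c+ cells than in basal cells; the values that brought in Ptprf are not given in the sources used here. Their differences in the CD229+ subsets are therefore given as descriptions, without a p-value.

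All cells came from adult male wild-type C57BL/6 mice and were analysed by chromatin immunoprecipitation sequencing (ChIP-seq). Cuprizone is a copper chelator that strips myelin when fed to mice, and the 3 cuprizone groups had eaten a diet with 0.2% of it for 4 weeks. These microglia were sorted into CD229+CD11c+, CD229+CD11c- and CD229-CD11c- cells (3 H3K27me3 libraries each); CD229 is the surface receptor Ly9, and CD11c the integrin subunit Itgax. The basal group was microglia sorted as CD44Low, CD45Low and CD11bLow from mice on a regular diet, and 3 of its 5 H3K27me3 libraries (replicates 3, 4 and 5) had counts. The labels give that gate for the basal cells alone, so diet and sorting gate cannot be told apart in any comparison with basal. For each sort the brains of 2 to 6 mice of the same condition were combined. The labels do not say whether replicates are different animals, so a p-value here covers only the spread between libraries, which may be technical.

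H3K27me3 is laid down by the Polycomb complex PRC2 and marks genes that a cell keeps silent, most often at CpG-rich promoters. Mmp15 encodes a membrane-type matrix metalloproteinase, an enzyme anchored in the plasma membrane that cuts extracellular matrix proteins and activates other metalloproteinases. Ajuba encodes a LIM-domain protein of the zyxin family that sits at cell-cell and cell-matrix contacts and restrains the LATS kinases of the Hippo pathway. Ptprf encodes LAR, a receptor-type protein tyrosine phosphatase with a cell-adhesion-like extracellular part.

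Each gene had a region over its transcription start site (TSS), and the promoters beneath these regions differed in CpG content, the sequence feature that PRC2 targets share most often. The promoter windows, which run from 250 bases before to 50 bases after the start, are shown because they lie in or at the edge of the regions that carried the differences. They come from RefSeq (build GRCm38.p6) and read 5′ to 3′ along the gene's strand, with each CpG in capitals: chr8:95352046-95352345 on the plus strand for Mmp15, chr14:54577612-54577911 on the minus strand for Ajuba and chr4:118291348-118291647 on the minus strand for Ptprf.
Mmp15: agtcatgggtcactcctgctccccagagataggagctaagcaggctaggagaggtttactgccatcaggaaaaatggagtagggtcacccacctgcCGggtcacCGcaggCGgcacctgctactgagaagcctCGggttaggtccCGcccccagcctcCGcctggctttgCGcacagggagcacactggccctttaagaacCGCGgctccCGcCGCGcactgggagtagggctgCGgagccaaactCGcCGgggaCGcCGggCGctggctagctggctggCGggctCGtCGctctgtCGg
Ajuba: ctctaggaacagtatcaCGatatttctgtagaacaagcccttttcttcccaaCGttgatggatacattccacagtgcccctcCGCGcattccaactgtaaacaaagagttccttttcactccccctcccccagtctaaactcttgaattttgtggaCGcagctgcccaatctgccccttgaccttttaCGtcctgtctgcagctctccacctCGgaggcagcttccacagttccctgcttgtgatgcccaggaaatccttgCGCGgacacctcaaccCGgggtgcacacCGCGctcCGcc
Ptprf: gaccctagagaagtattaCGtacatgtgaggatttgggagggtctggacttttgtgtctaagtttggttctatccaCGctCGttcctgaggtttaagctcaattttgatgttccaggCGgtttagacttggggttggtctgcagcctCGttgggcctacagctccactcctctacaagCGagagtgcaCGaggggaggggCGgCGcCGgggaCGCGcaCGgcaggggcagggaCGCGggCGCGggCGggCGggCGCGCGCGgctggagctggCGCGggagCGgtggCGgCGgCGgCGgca

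The Ptprf window held 30 CpGs at 64% GC, with 1.05 times the CpGs that its base composition predicts, which put that ratio at the 96.3 percentile of the 32851 promoters in the table. The Mmp15 window held 22 CpGs at 66% GC, with a ratio of 0.674. The Ajuba window held 13 CpGs at 54% GC, with a ratio of 0.657. All 3 lay above the median promoter, which had 7 CpGs, 52.7% GC and a ratio of 0.384. The GC box GGGCGG, searched on both strands, occurred once in the Mmp15 window, 3 times in the Ptprf window and not in the Ajuba window, and 35.7% of all promoters of the same length hold it. Neither TATAAA nor GAGGAAG, the core of a site for the myeloid factor PU.1, occurred on either strand in the 3 windows; each was held by 13.6% of all promoters. A match in these letters is a description of the sequence and not evidence of binding.

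The regions are given in mm10 as the authors' table lists them. The Mmp15 region (chr8:95350803-95356602, 5800 bp) ran from -1493 to 4306 bp around the TSS, with its centre in intron 1 of 9, and contained the whole promoter window. The Ajuba region (chr14:54574179-54577767, 3589 bp) ran from -106 to 3482 bp around the TSS, with its centre in a CpG island in intron 1 of 7, so that 156 bases of the promoter window lay inside it. The Ptprf start-site region (chr4:118287393-118294888, 7496 bp) ran from -3491 to 4004 bp around the TSS, was centred on a CpG island in intron 1 of 32, and contained the whole window. Of the other 5 Ptprf regions, 3 lay upstream with centres at -27.2, -15.8 and -9.91 kb from the TSS, and 2 lay inside the gene at 11.2 kb (intron 2) and 33.1 kb (intron 5). They were 3905 to 19108 bp long.

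The mark was present over all 3 start sites in basal cells before any comparison. The regions were called by the authors from basal replicates 1 and 2 against input, libraries that have no counts here, so chromatin marked in cuprizone cells alone was not counted. In the authors' deposited table the Ajuba region had a log2 enrichment over input of 2.297, the Ptprf start-site region 1.89 and the Mmp15 region 1.75, against a median of 1.49 over all regions and 1.72 over the 4481 regions within 5 kb of a protein-coding TSS. Ajuba stood at the 88.7 percentile of those 4481 regions and Mmp15, at the 52.9 percentile, close to their middle. The other 5 Ptprf regions had a log2 enrichment of 1.34 to 1.81. Per kilobase, basal tag density was 4.86 ± 0.392 CPM per kb (CPM are counts scaled to each library's normalised total) at Ajuba, 3.78 ± 0.413 at the Ptprf start site and 2.77 ± 0.232 at Mmp15 (SD, n = 3 libraries each).

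At Mmp15, the mark was higher in both CD229+ subsets and close to basal in CD229-CD11c- cells. Normalised tag counts were 35.3, 29.9 and 33.2 CPM in CD229+CD11c+ cells. They were 45.2, 37.5 and 41.3 CPM in CD229+CD11c- cells. They were 19.7, 18.3 and 18.6 CPM in CD229-CD11c- cells, against 17.6, 15.1 and 15.5 CPM in basal cells. Every CD229+ library lay above every CD229-CD11c- and basal library, the 2 CD229+ subsets did not overlap each other, and the CD229-CD11c- libraries all lay just above the basal ones. The highest group mean, 41.4 ± 3.87 CPM in CD229+CD11c- cells, stood beside 16.1 ± 1.34 CPM in basal cells (SD, n = 3 each).

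Ajuba had the same order of groups, with wider scatter than Mmp15 in CD229+CD11c+ and CD229-CD11c- cells. The 3 libraries held 37.1, 29.0 and 35.9 CPM in CD229+CD11c+ cells. They held 36.3, 37.3 and 42.0 CPM in CD229+CD11c- cells. They held 19.0, 16.4 and 23.0 CPM in CD229-CD11c- cells, against 18.3, 15.8 and 18.2 CPM in basal cells. The CD229+ libraries again all lay above the others, while the 2 CD229+ subsets overlapped, as did CD229-CD11c- and basal cells. Group means were 34.0 ± 4.36 CPM in CD229+CD11c+, 38.5 ± 3.04 CPM in CD229+CD11c-, 19.5 ± 3.33 CPM in CD229-CD11c- and 17.5 ± 1.41 CPM in basal cells (SD, n = 3 each).

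At the Ptprf start site, the CD229+CD11c- cells stood apart from all other groups. The libraries held 37.0, 41.3 and 46.2 CPM in CD229+CD11c+ cells. They held 57.4, 56.9 and 52.4 CPM in CD229+CD11c- cells. They held 29.2, 25.9 and 25.0 CPM in CD229-CD11c- cells, against 31.9, 26.3 and 26.8 CPM in basal cells. CD229-CD11c- and basal cells overlapped, and CD229+CD11c+ cells lay between them and the CD229+CD11c- cells without overlapping either. Every library above every basal library was seen in 14.7% of all regions for CD229+CD11c+ cells and in 16.0% for CD229+CD11c- cells, and above every CD229-CD11c- library in 7.50% and 12.2%. Among regions within 5 kb of a protein-coding TSS the shares were larger, 30.5% and 39.7% over basal, and 16.8% and 30.7% over CD229-CD11c- cells. In such pooled material, more tags from each cell and a larger share of cells with the mark cannot be told apart.

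**Figure D1:**
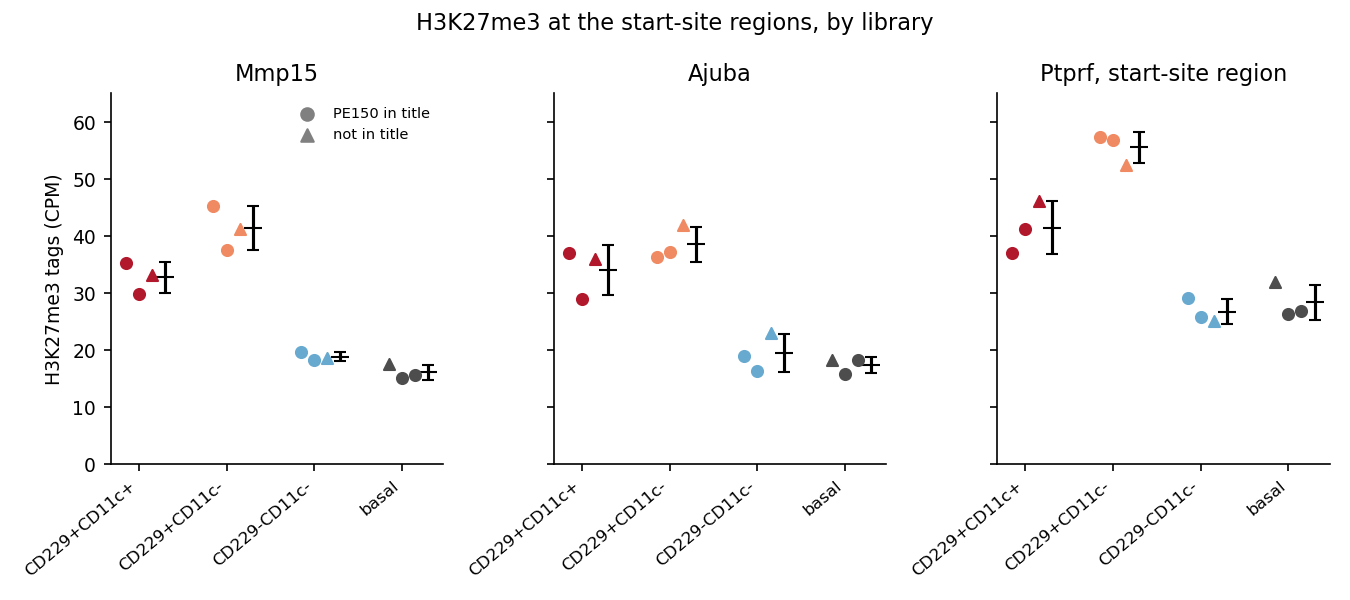
H3K27me3 tags in CPM (vertical axis) at the start-site regions of Mmp15, Ajuba and Ptprf, with 1 point per library, circles for libraries with PE150 in their title and triangles for the others, and black marks for the group mean ± SD (n = 3). In each panel the 6 CD229+ libraries lie above all CD229-CD11c- and basal libraries.

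In CD229-CD11c- cells, which came from mice on the same cuprizone diet, no region of the 3 genes differed from basal at an adjusted p under 0.05: 0 of 8 were called by edgeR's quasi-likelihood test, beside 0% of all 26326 regions (Benjamini-Hochberg over all regions). Without adjustment 1103 of all regions had a p under 0.05, none of them among the 8, and DESeq2 and the authors' deposited table also called 0 regions. The log2 difference was 0.23 ± 0.12 (SE) at Mmp15, 0.17 ± 0.14 at Ajuba and -0.08 ± 0.11 at the Ptprf start site, each with an adjusted p of 0.983. The 3 Mmp15 libraries all exceeded basal, as in 4.19% of all regions and 4.98% of those within 5 kb of a protein-coding TSS. The difference stayed short of the threshold. The other 5 Ptprf regions differed by -0.03 to 0.22.

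In CD229+CD11c- cells, 3 of the 8 regions were called higher than basal, beside 9.52% of all regions, and none was called lower. The 3 were the start-site regions. Mmp15 was higher by 1.37 ± 0.11 on the log2 scale, Ajuba by 1.14 ± 0.13 and the Ptprf start-site region by 0.97 ± 0.11, each in 3 of 3 libraries. This comparison shares its basal libraries with the one that chose Mmp15 and Ajuba, so these values too are a description. Among regions within 5 kb of a protein-coding TSS, 29.4% were called higher, against 5.09% of regions farther from any TSS, so start-site regions in general were called higher in a larger share than the rest. The median log2 difference was 0.25 over the 8 regions, 0.16 over the 4481 start-site regions and -0.03 over all regions.

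In CD229+CD11c+ cells, 3 of the 8 regions were called higher than basal, beside 4.33% of all regions, 14.2% of those near a protein-coding TSS and 2.10% of those farther from any TSS. This comparison chose Mmp15 and Ajuba, so the counts are a description. The log2 difference was 1.03 ± 0.11 at Mmp15, 0.96 ± 0.13 at Ajuba and 0.55 ± 0.11 at the Ptprf start site. In fold terms Mmp15 was 2.04 times and Ajuba 1.95 times basal, while the Ptprf start site was 1.47 times basal.

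Within the cuprizone diet, where all cells had the same treatment, the order was the same. CD229+CD11c- cells exceeded CD229-CD11c- cells by 1.13 ± 0.11 at Mmp15, 0.98 ± 0.13 at Ajuba and 1.06 ± 0.11 at the Ptprf start site, on the log2 scale. Of the 8 regions 3 were called higher, beside 6.75% of all regions and 20.9% of those within 5 kb of a protein-coding TSS. CD229+CD11c+ cells exceeded CD229-CD11c- cells by 0.80 ± 0.11 at Mmp15, 0.80 ± 0.13 at Ajuba and 0.64 ± 0.11 at the Ptprf start site. Here 3 of the 8 were called higher, beside 0.395% of all regions and 1.23% of those near a protein-coding TSS. The CD229+CD11c+ libraries are those of the comparison that chose Mmp15 and Ajuba, so these values too are a description. With the replicate number as a block, 4595 regions in place of 2199 were called for CD229+CD11c- over CD229-CD11c- cells and 2025 in place of 144 for CD229+CD11c+ over CD229-CD11c- cells, with 3 members called in both. Between the CD229+ subsets, CD229+CD11c+ cells were lower than CD229+CD11c- cells by 0.34 ± 0.11 at Mmp15, 0.18 ± 0.12 at Ajuba and 0.42 ± 0.10 at the Ptprf start site. In edgeR's fit none of the 8 was called there, beside 0.771% of all regions called lower and 0.0532% called higher. The authors' deposited table, DESeq2 and 6 other alternatives did call the Ptprf start site lower, and 2 alternatives called Mmp15 lower. In both of these regions the libraries of the 2 subsets did not overlap. That held, with CD229+CD11c+ cells lower, in 11.1% of all regions and 23.9% of those within 5 kb of a protein-coding TSS.

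Ptprf, with 6 regions, gave values at several places along the gene. The regions reached from 34.7 kb upstream of the TSS to 42.6 kb into the gene, and of the 6 the start-site region was the one edgeR's fit called over basal. Among all regions over 5 kb from any TSS, 5.09% were called higher in CD229+CD11c- and 2.10% in CD229+CD11c+ cells over basal. Uncalled regions away from a start site were thus the rule. Regions farther into the gene, in introns 13 and 21, have Mir7226 as nearest gene and are given with the neighbours below. The region at -27.2 kb averaged 63.6 CPM in CD229+CD11c+ cells, 63.1 in CD229+CD11c- cells and 61.1 in CD229-CD11c- cells, against 57.0 CPM in basal cells. The regions at -15.8, -9.91 and 11.2 kb differed from basal by -0.18 to 0.12 on the log2 scale in the 3 subsets. In all 5 regions away from the start site the groups overlapped in every comparison.

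The region in intron 5, at 33.1 kb, had the next largest difference. It held 60.9, 66.0 and 49.0 CPM in CD229+CD11c+ cells. It held 68.5, 59.4 and 43.0 CPM in CD229+CD11c- cells. It held 56.8, 58.1 and 42.2 CPM in CD229-CD11c- cells, against 39.5, 45.5 and 49.2 CPM in basal cells. Replicate 3 was the lowest library in every group, and it is the only one in each without PE150 in its title. The log2 difference from basal was 0.39 ± 0.15 in CD229+CD11c+ cells, 0.35 ± 0.15 in CD229+CD11c- cells and 0.22 ± 0.16 in CD229-CD11c- cells, none of them called in edgeR's fit. The authors' deposited table did call it in CD229+CD11c+ over basal, with a log2 difference of 0.39. Under other settings it was called in CD229+CD11c+ over basal by 3 of 14 alternatives and in CD229+CD11c- over basal by 4 of 14. Whether the start-site region differs from the other 5 in its change was not tested.

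**Figure D2:**
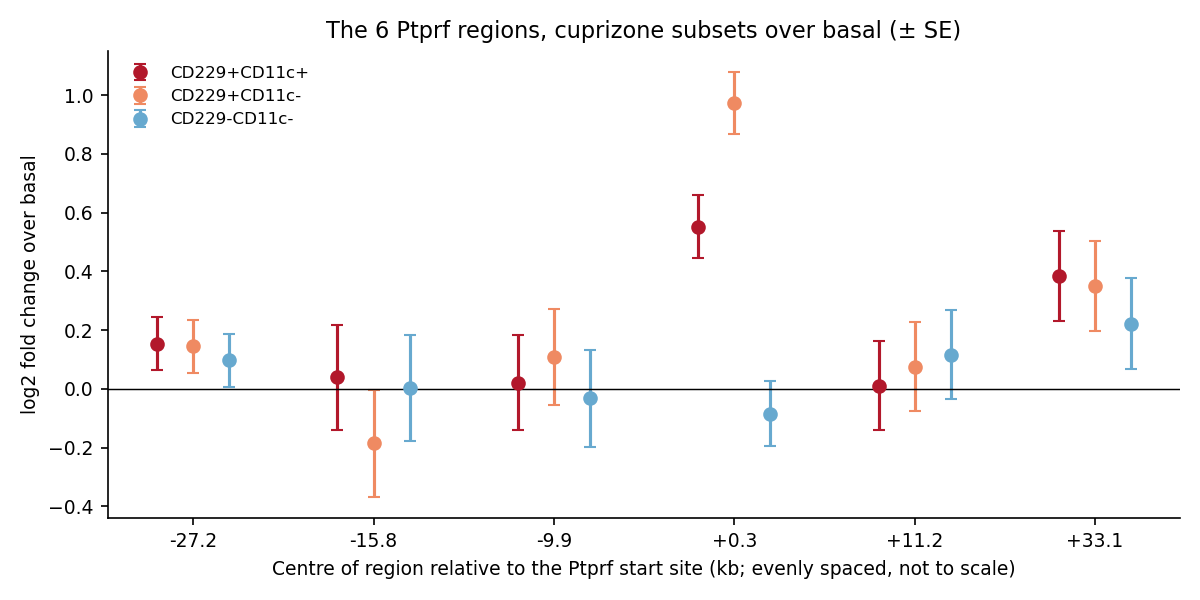
Log2 fold change over basal with its SE (vertical axis) for the 6 regions of Ptprf, ordered by the position of their centre from the TSS in kb (evenly spaced), for CD229+CD11c+, CD229+CD11c- and CD229-CD11c- cells. The start-site region reaches 0.55 and 0.97 in the CD229+ subsets and -0.08 in CD229-CD11c- cells; no other region exceeds 0.39.

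A share of tags within a library needs no scaling between libraries. The start-site region held 19.7 ± 3.40% of the tags of the 6 Ptprf regions in CD229+CD11c+ cells, 24.8 ± 0.877% in CD229+CD11c- cells and 14.1 ± 1.08% in CD229-CD11c- cells, against 16.1 ± 2.58% in basal cells (SD, n = 3 each). The lowest CD229+CD11c- library, at 23.9%, exceeded the highest basal library, at 19.1%, whereas the lowest CD229+CD11c+ library, at 17.1%, did not. The Mmp15 region took 5.92 ± 0.426% of the tags of the 13 regions within 250 kb in CD229+CD11c+ cells, 7.31 ± 0.445% in CD229+CD11c- cells and 3.47 ± 0.140% in CD229-CD11c- cells, against 3.01 ± 0.325% in basal cells. The Ajuba region took 14.9 ± 1.85% of the tags of 9 such regions in CD229+CD11c+ cells, 15.6 ± 0.574% in CD229+CD11c- cells and 9.38 ± 1.10% in CD229-CD11c- cells, against 8.25 ± 0.602% in basal cells. For Mmp15 and Ajuba every CD229+ library had a larger share than every basal library.

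Around the 3 loci no region with another nearest gene was called higher over basal in either CD229+ subset. Of such regions within 250 kb, 12 near Mmp15, 8 near Ajuba and 12 near Ptprf, none was called in CD229+CD11c- over basal. Over all regions 9.52% were called higher in CD229+CD11c- and 4.33% in CD229+CD11c+ cells over basal. Of those over 5 kb from any TSS, 5.09% and 2.10% were. With so few neighbours, the absence of higher calls is not far from these shares. The log2 differences of the neighbours in CD229+CD11c- over basal ran from -0.24 to 0.20 near Mmp15, from -0.30 to 0.42 near Ajuba and from -0.11 to 0.33 near Ptprf. Those with Mir7226 as nearest gene lay inside Ptprf, centred in its introns 13 and 21, with log2 differences of 0.12 and 0.02. The highest near Ajuba was at -49.4 kb from the Ajuba region, with its centre -9107 bp from the TSS of Prmt5, which encodes an arginine methyltransferase. In CD229+CD11c+ over basal 1 of these regions was called: its nearest gene was Oxa1l, which encodes a mitochondrial insertase, it lay at -235 kb from the Ajuba region, and its log2 difference was -0.62.

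**Figure D3:**
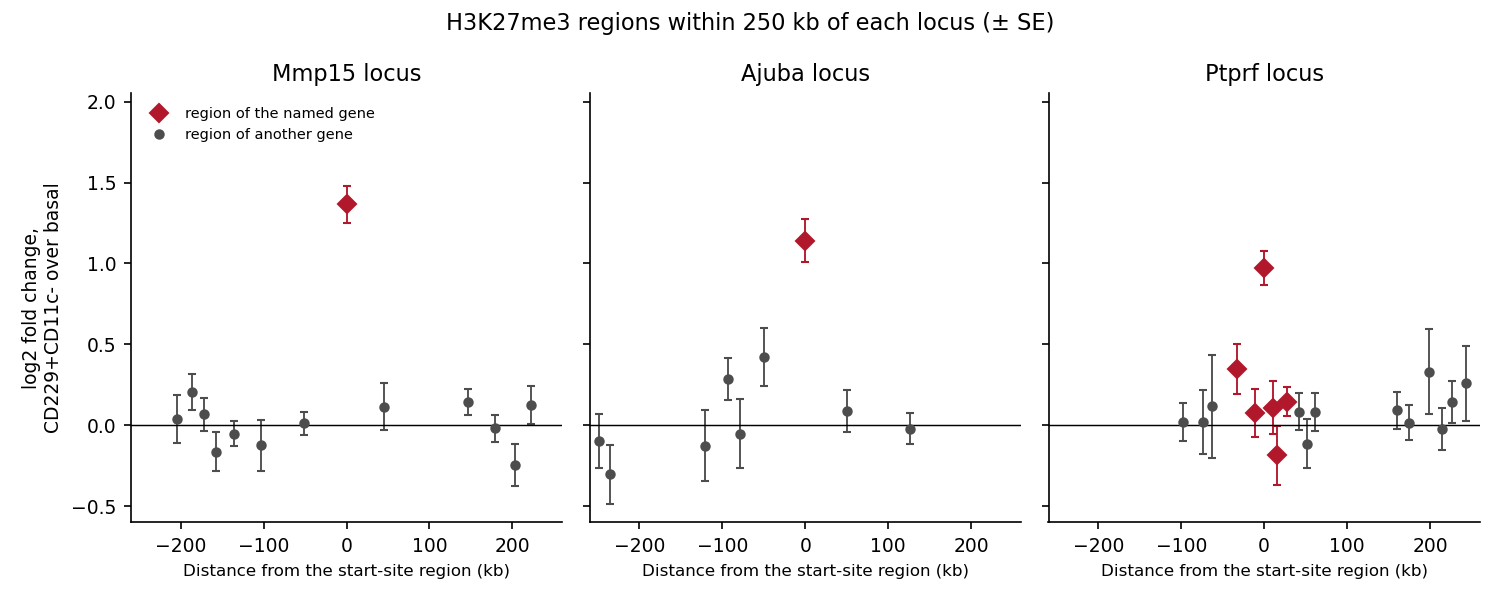
Log2 fold change of CD229+CD11c- over basal with its SE (vertical axis) for each region within 250 kb, against its distance in kb from the start-site region of Mmp15, Ajuba or Ptprf. Red diamonds are regions whose nearest gene is the named one and grey circles those with another nearest gene, among them the Mir7226 regions inside Ptprf. The start-site regions at 1.37, 1.14 and 0.97 stand above their neighbours, the highest of which is at 0.42.

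In CD229+CD11c- over basal Ajuba, with the highest basal enrichment of the 3 start-site regions, was 2.21 times and Mmp15, with the lowest of the 3, 2.58 times the basal level. With library scaling allowed to vary smoothly with basal enrichment and tag density, the log2 difference in CD229+CD11c- over basal was 1.24 at Mmp15 and 0.74 at the Ptprf start site. At Ajuba it was 0.73 under that scaling, against 1.14 without it, a change of over 1.5 times.

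**Figure D4:**
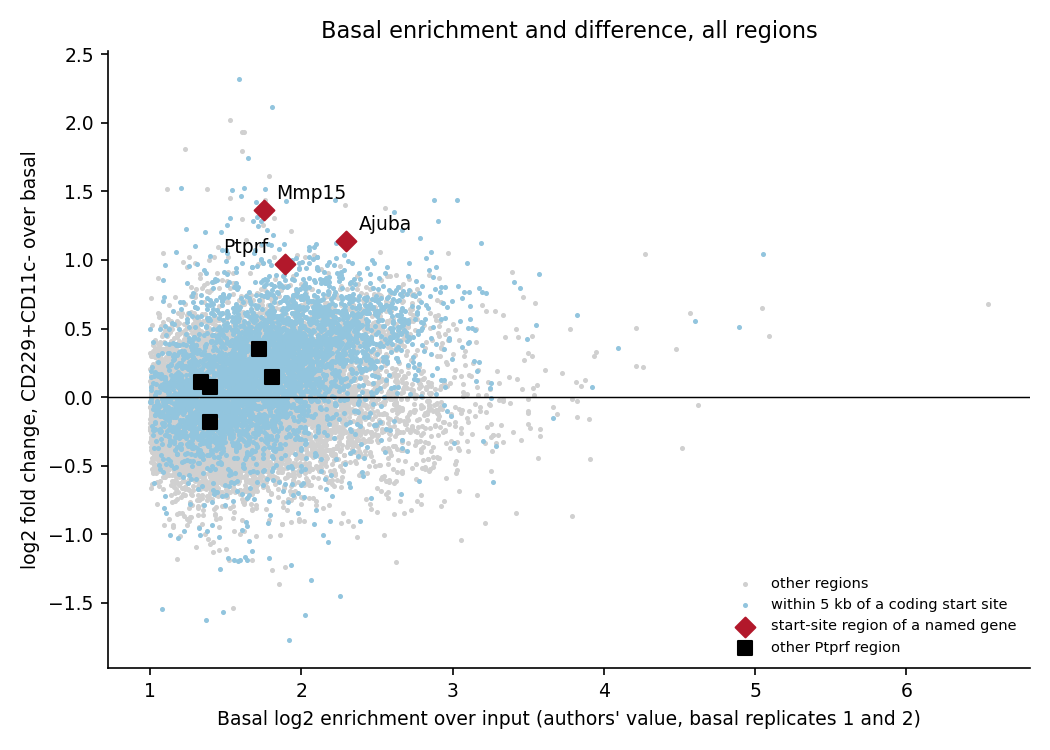
Log2 fold change of CD229+CD11c- over basal (vertical axis) against the authors' log2 enrichment of basal H3K27me3 over input (horizontal axis) for each region, blue within 5 kb of a protein-coding TSS and grey elsewhere. The start-site regions of Mmp15, Ajuba and Ptprf (red diamonds) lie at enrichments of 1.75, 2.297 and 1.89, and the other Ptprf regions (black squares) lie between -0.18 and 0.35 on the vertical axis.

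Genes of the same families were read from lists chosen with earlier results known, and their counts stand beside the shares of all regions called higher: 4.33% in CD229+CD11c+ over basal and 9.52% in CD229+CD11c- over basal, or 14.2% and 29.4% of regions within 5 kb of a protein-coding TSS. Of 26 matrix metalloproteinase and inhibitor genes, 12 had a region, 22 regions in all. The chosen Mmp15 region is in the list and among the higher calls of both comparisons. Of the 22 regions, 2 were called higher and none lower in CD229+CD11c+ over basal. In CD229+CD11c- over basal 7 were called higher and 1 lower. All 7 lay within 5 kb of a TSS, where the list has 10 regions and the share over all such coding regions was 29.4%. The median log2 difference was 0.10 in CD229+CD11c+ cells and 0.02 in CD229+CD11c- cells, against -0.01 and -0.03 over all regions. Beside Mmp15 stood Mmp23, a membrane-anchored metalloproteinase. Its region was centred -2112 bp from its TSS, in intron 15 of 17 of another annotated transcript, so Mmp23 is named as the nearest gene only. The region averaged 16.9 CPM in CD229+CD11c- cells against 7.09 CPM in basal cells, a log2 difference of 1.25 ± 0.19 (edgeR adjusted p = 9.2e-05). Mmp11, a secreted metalloproteinase, was higher by 0.63 ± 0.12 in the same cells (edgeR adjusted p = 0.000899), but was not called when library scaling followed basal enrichment (edgeR adjusted p = 0.0975).

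Ajuba, its relatives and the Hippo pathway gave 50 regions of 20 genes out of 30. The chosen Ajuba region is in the list and among the higher calls of both comparisons. There, 4 were called higher and 4 lower in CD229+CD11c+ over basal, and in CD229+CD11c- over basal 9 were called higher and 2 lower, 6 of the 9 among the 12 regions within 5 kb of a TSS; over all regions 4.33% and 9.52% were called higher. The medians were 0.07 in both CD229+ subsets. Wwtr1, which encodes the Hippo effector TAZ, was higher by 0.81 ± 0.09 in CD229+CD11c- cells at a region centred -2356 bp from its TSS (edgeR adjusted p = 4.19e-06). In CD229+CD11c+ cells that region was at 0.24 and not called (edgeR adjusted p = 0.148). The Wwtr1 regions at 22612 and -18026 bp were called in neither subset. Tead4, a transcription factor that TAZ and YAP bind, was higher by 0.64 ± 0.09 in CD229+CD11c- cells (edgeR adjusted p = 1.89e-05). Fblim1, which encodes the filamin-binding LIM protein migfilin, went the other way: its promoter region averaged 7.53 CPM in CD229+CD11c+ cells against 18.03 CPM in basal cells, a log2 difference of -1.26 ± 0.18 (edgeR adjusted p = 0.000245). Start-site regions of LIM-domain genes thus stood at both ends of this list.

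Receptor-type tyrosine phosphatases and partners of LAR gave 77 regions of 24 genes out of 34, 6 of them those of Ptprf. The Ptprf start-site region is among the higher calls of both comparisons. Calls in CD229+CD11c+ over basal were 6 higher and 1 lower, and in CD229+CD11c- over basal 7 were called higher and 2 lower, 4 of the 7 among the 19 regions within 5 kb of a TSS. Over all regions 4.33% and 9.52% were called higher, so the 7 of 77 were a share near the background. The medians were 0.05 in CD229+CD11c+ cells and -0.05 in CD229+CD11c- cells. Ptprs, a LAR-family gene like Ptprf, was higher by 0.58 ± 0.08 in CD229+CD11c- cells at a region centred -10184 bp from its TSS (edgeR adjusted p = 3.23e-05). Ptprd, the remaining LAR-family gene, was higher by 0.55 ± 0.15 in CD229+CD11c+ cells at a region centred -105599 bp from its TSS (edgeR adjusted p = 0.0365), a call lost when libraries were scaled to their total tags (edgeR adjusted p = 0.062). The regions nearest to their start sites were not called: that of Ptprs had log2 differences of -0.48 in CD229+CD11c+ cells and -0.47 in CD229+CD11c- cells, and that of Ptprd 0.22 in CD229+CD11c+ cells and -0.12 in CD229+CD11c- cells.

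Classical cadherins and catenins, which join cells to one another, gave 40 regions of 14 genes out of 25. Higher calls numbered 5 in CD229+CD11c+ over basal, and in CD229+CD11c- over basal 7 were, with none lower in either; all lay among the 11 regions within 5 kb of a TSS. Over all such coding regions 14.2% and 29.4% were called higher. The medians were 0.03 in CD229+CD11c+ cells and -0.01 in CD229+CD11c- cells. Cdh2, which encodes N-cadherin, averaged 37.8 CPM in CD229+CD11c+ cells and 41.0 CPM in CD229+CD11c- cells, against 23.0 CPM in basal cells (edgeR adjusted p = 0.00396 and 0.000213). Cdh1, which encodes E-cadherin, was higher by 0.56 ± 0.09 in CD229+CD11c- cells (edgeR adjusted p = 0.00016), but was at -0.07 and not called when library scaling followed basal enrichment. Ctnnd2, which encodes delta-catenin, was higher by 0.69 ± 0.14 in CD229+CD11c+ cells (edgeR adjusted p = 0.00541).

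**Figure D5:**
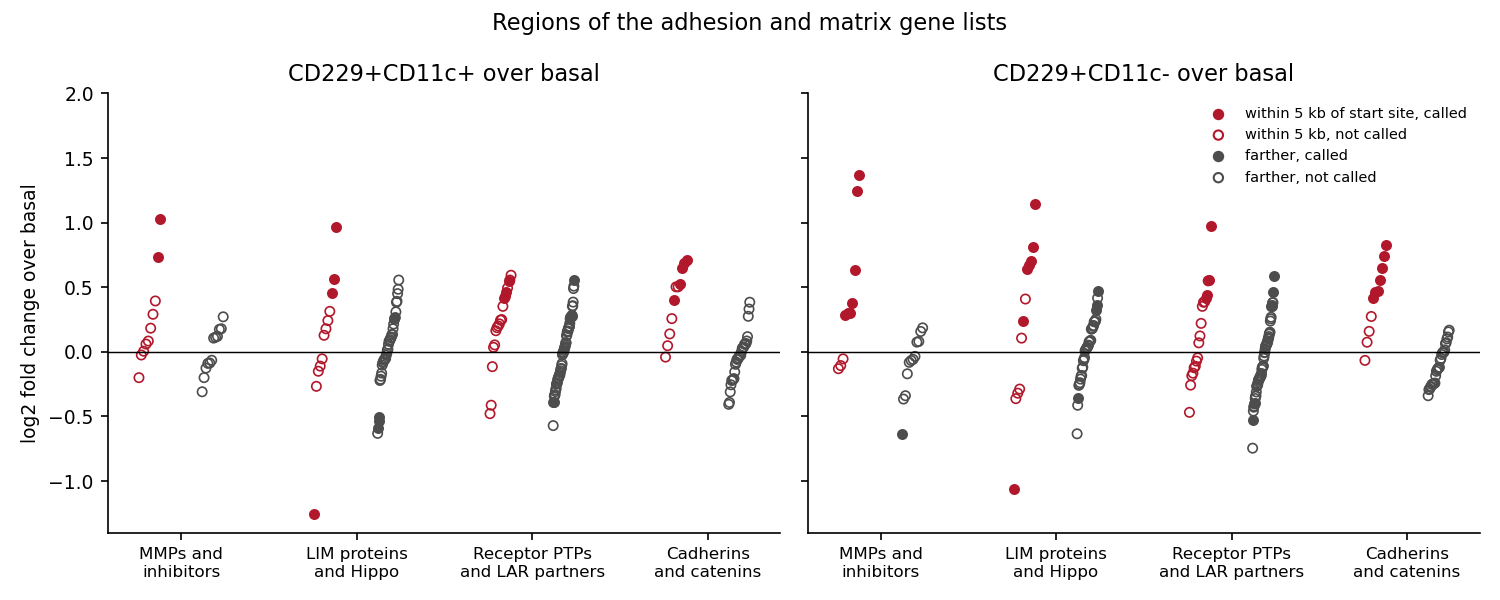
Log2 fold change over basal (vertical axis) of every region of the 4 gene lists, in CD229+CD11c+ cells (left) and CD229+CD11c- cells (right), red within 5 kb of a TSS and grey farther away, filled where edgeR's adjusted p was under 0.05. In CD229+CD11c- cells the filled points above 0 in the metalloproteinase and cadherin lists are all red, 7 in each.

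These list counts moved with the scaling. With libraries scaled to their total tags, which moved the median of all regions to -0.16 in CD229+CD11c- over basal, the counts there were 3 higher and 3 lower for the metalloproteinases, 6 and 4 for the LIM and Hippo genes, 3 and 16 for the phosphatases, and 5 and 4 for the cadherins. Under the scaling by basal enrichment they were 2 and 0, 6 and 2, 3 and 1, and 3 and 0. Over all regions, 73.3% of those called in CD229+CD11c- over basal were higher, against 29.4% with total-tag scaling and 61.7% with the scaling by basal enrichment. In CD229+CD11c+ over basal the share was 74.7%, against 46.3% and 68.2%. The start-site regions of Mmp15, Ajuba and Ptprf were called higher over basal in both CD229+ subsets under each of these scalings. Mmp15 and Ajuba were chosen by their high value in CD229+CD11c+ over basal, so these calls are a description and no independent support.

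The regions whose pattern over the 12 libraries was most like that of the 3 start sites were found by the root mean square difference of log2 CPM, centred on each region's mean. For Mmp15 they were nearest to Sema4b (0.141), Ube2m (0.155) and Ajuba (0.157), against a median of 0.563 over the regions compared. For Ajuba they were nearest to Gstp3 (0.141), Rapgef3 (0.147) and Scarf2 (0.152), against a median of 0.517. For the Ptprf start site they were nearest to Paqr4 (0.131) and Ube2m (0.132), against a median of 0.447. The Sema4b region was centred -23337 bp from its TSS and differed from basal by 1.52 in CD229+CD11c- cells and 1.03 in CD229+CD11c+ cells.

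The 12 counted libraries held 7740002 to 11362168 tags in regions, and no replicate pair agreed within sampling noise (chi-square per degree of freedom 1.68 to 7.60). Of 16 microglial marker genes, 3 (Olfml3, Sall1 and Siglech) were the nearest gene of any region, and none of their 6 regions lay within 55 kb of the TSS. Regions within 5 kb of a TSS were 6 of 15 for neuron markers, 2 of 13 for oligodendrocytes and 7 of 28 for astrocytes. They were 5 of 32 for endothelial and mural cells, 4 of 45 for lymphocytes and 3 of 4 for neutrophils. All regions were called on basal replicates 1 and 2, so their positions do not describe the cuprizone subsets. In each group 2 of the 3 libraries had PE150 in their title, a tag whose meaning the labels do not give. The difference of CD229+CD11c- over basal in tagged and untagged libraries was 1.42 and 1.22 at Mmp15, 1.11 and 1.19 at Ajuba, and 1.10 and 0.71 at the Ptprf start site. That of CD229+CD11c+ over basal was 1.07 and 0.91 at Mmp15, 0.94 and 0.96 at Ajuba, and 0.55 and 0.53 at the Ptprf start site.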

How the data were processed

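Per the labels, H3K27me3 ChIP-seq was done on sorted microglia in 28 libraries, 14 H3K27me3 and 14 input. HOMER, DESeq2, Bowtie2 2.3.4.1 and fastp 0.20.0 and build mm10 are named in the submitters' processing notes. Per the file headers, the authors called regions with HOMER on basal replicates 1 and 2 against input, keeping log2 enrichment of 1 or more. The authors' deposited raw counts, 1 per region and library for 12 libraries, were the values tested here. The authors' deposited table of scaled signal, with its log2 fold changes and adjusted p-values, and their log2 enrichment over input served for description only, as did the p-values of that enrichment. The authors' deposited peak score and region size were not tested.

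Counts were fitted with edgeR 4.0.16 in R 4.3.3: filterByExpr, TMM, robust quasi-likelihood F-test, all 4 groups in 1 fit, Benjamini-Hochberg over 26326 regions, called at adjusted p under 0.05. CPM used the TMM-scaled totals; log2 CPM had a prior count of 2. A log2 difference ± SE is that of the fit. DESeq2 1.42.0 was an alternative, beside other scalings, the PE150 tag as a covariate, a replicate block and each library left out. The steps were tested on simulated data. The genes and lists were chosen with earlier results of these data known. Regions were named by nearest gene; the named list genes are the called ones with the 3 smallest p per list in each CD229+ subset over basal. The like regions are the 3 closest of other named genes among regions of at least median CPM, of which 1 is not reported here.

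Replicate numbers from the titles would pair the cuprizone subsets if same-numbered libraries deviated together from their group means. The correlations across regions were 0.237, 0.134 and 0.417 between CD229+CD11c+ and CD229-CD11c- cells. Between CD229+CD11c- and CD229-CD11c- cells they were 0.283, 0.128 and 0.457. Some libraries of different number correlated more than those of replicate 2. CD229-CD11c- replicate 2 had 0.184 with CD229+CD11c+ replicate 1 and 0.248 with CD229+CD11c- replicate 1. A pairing apart from the split between replicate 3, which lacks PE150 in its title, and the others was therefore not shown. The counts with the replicate block are printed beside these comparisons, whose other values come from the fit without it. By replicate number, basal cells share only replicate 3 with the subsets. Whether the barcodes in the titles match them otherwise was not tested. Input libraries and basal replicates 1 and 2 have no counts here and entered no test.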

Additional observations from a re-analysis of the deposited data

Results flagged for a closer look

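The start-site regions of Mmp15, Ajuba and Ptprf stood out because the cuprizone subsets, all from the same diet, differed from each other there. For CD229+CD11c- over CD229-CD11c- cells the log2 difference was 1.13 at Mmp15, 0.98 at Ajuba and 1.06 at Ptprf. For CD229+CD11c+ over CD229-CD11c- cells it was 0.80 at Mmp15, 0.80 at Ajuba and 0.64 at Ptprf. In both comparisons all 3 CD229+ libraries lay above all 3 CD229-CD11c- libraries at each region, as 12.2% and 7.50% of all regions did. Within 5 kb of a protein-coding TSS, 30.7% and 16.8% of regions did so. The CD229+CD11c+ libraries also served in the comparison that chose Mmp15 and Ajuba, so their values here are a description and no independent support. With 3 libraries a group, no test for outlying libraries was made. Fits with each library left out are given below.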

How the results depend on the processing

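The start-site regions of Mmp15, Ajuba and Ptprf were called higher in both CD229+ subsets over basal under all 14 alternatives and over CD229-CD11c- cells under all 15; these comparisons include the one that chose Mmp15 and Ajuba, so the calls are no independent support. With the scaling by basal enrichment, Ajuba was 0.73 in CD229+CD11c- over basal and 0.60 in CD229+CD11c- over CD229-CD11c- cells. Its uncalled CD229+CD11c+ over CD229+CD11c- value went from -0.18 to 0.09 there. The cause of these shifts was not tested.

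Between CD229+CD11c+ and CD229+CD11c- cells, where 0 members were called, 1 was with DESeq2, RLE size factors, only those 2 groups or tagged libraries alone, and 2 with the tag as a covariate or with the replicate block. Leaving out a library gave 0 to 1, the 1 without CD229+CD11c+ replicate 3. The pairing there was not shown either, and the correlation for replicate 2 was 0.083. With the block 2199 regions were called in place of 217. With only 1 shared replicate number, no paired analysis with basal was run. Whether title barcodes match basal libraries to subsets was not tested.

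Counts of all regions moved more. For CD229-CD11c- over basal they were 33 with the tag as a covariate, 916 in tagged libraries and 0 to 30 with a library left out, the 30 without CD229-CD11c- replicate 3. For CD229+CD11c- over basal (3419) they were 5367 with total-tag scaling, 1874 with scaling by basal enrichment, 5828 with the covariate, 5532 in tagged libraries and 2084 to 3294 with a library left out, the lowest without basal replicate 4. For CD229+CD11c+ over basal (1525) they were 2977 with those 2 groups alone, 4538 with the covariate, 4274 in tagged libraries and 442 to 1605 with a library left out, the lowest without basal replicate 4 and moved by over 1.5 times also without basal replicates 3 and 5 or CD229+CD11c+ replicates 1 and 2. For CD229+CD11c- over CD229-CD11c- cells (2199) they were 756 with scaling by basal enrichment, 4370 with the covariate, 3309 in tagged libraries, 4595 with the replicate block and 1532 to 2576 with a library left out. For CD229+CD11c+ over CD229-CD11c- cells (144) they were 351 with DESeq2, 50 with those 2 groups alone, 1638 with the covariate, 933 in tagged libraries, 2025 with the replicate block and 44 to 271 with a library left out, moved by over 1.5 times without CD229+CD11c+ replicates 1 and 2 or CD229-CD11c- replicates 2 and 3. For CD229+CD11c+ over CD229+CD11c- cells they were 668 with DESeq2, 28 with total-tag scaling, 45 with scaling by basal enrichment, 631 with those 2 groups alone, 1920 with the covariate, 1397 in tagged libraries and 9 to 157 with a library left out, moved by over 1.5 times except without CD229+CD11c+ replicate 3. With total-tag scaling 38.4% and 54.5% of calls over CD229-CD11c- cells were higher in CD229+CD11c- and CD229+CD11c+ cells, in place of 80.8% and 72.2%; with scaling by basal enrichment they were 61.9% and 55.9%, and 44.4% in place of 6.45% between the CD229+ subsets.

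Sign changes, all uncalled, fell in several comparisons. Those in CD229-CD11c- over basal follow. The Ptprf region at -15.8 kb was -0.0218 with total-tag scaling and -0.0405 to 0.0531 with a library left out, below 0 without basal replicate 5 or CD229-CD11c- replicates 2 and 3. The Ptprf start site was 0.0553 in tagged libraries and -0.155 to 0.00661 with a library left out, above 0 without basal replicate 3. The Ptprf region at -9.91 kb was -0.169 to 0.114, above 0 without basal replicate 4 or CD229-CD11c- replicate 2. The Ptprf region at 33.1 kb was called over basal with those 2 groups alone, the covariate or tagged libraries, in both CD229+ subsets, and in CD229+CD11c- cells also without CD229+CD11c- replicate 3. Tag counts of 57 to 726 per library and region limit the precision at these loci.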
